A study of Mus musculus with 14 samples.

Results

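The genes described here encode enzymes that supply NADPH, the reducing agent of fatty acid synthesis, or that belong to the pentose phosphate pathway which generates it. They are the 10 genes *G6pdx*, *Pgls*, *Pgd*, *Rpia*, *Tkt*, *Taldo1*, *Idh1*, *Idh2*, *Me1* and *Mthfd1*, chosen by name from knowledge of the pathway. Earlier results of these data were known when they were chosen. All 10 were found among the 20550 genes listed. The values are exon and intron FPKM, that is read counts scaled to the length of the sequence and to the library, from total RNA of mammary glands on day 10 of lactation (L10). RNA was sequenced from 2 mice of one genotype, labelled WT/wTbrg4 and called wt/Wap-Tbrg4 here, in a C57BL/6 background. These mice carry one wild type allele and one allele in which CRISPR-Cas9 deletion joins the *Wap* super-enhancer and promoter to the body of the neighboring *Tbrg4* gene. Their age, and whether the replicates came from separate animals, is not given in the sources used here. They are called mice below, and the spread between them may be technical. No other genotype had expression values in the files used here, so the only comparison between samples is that of the 2 replicates, and no test was made.

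The lactating gland makes fatty acids from glucose, and each round of chain elongation by fatty acid synthase consumes NADPH. In the oxidative branch of the pentose phosphate pathway, G6PDX oxidizes glucose 6-phosphate and PGD oxidizes 6-phosphogluconate, each step reducing NADP+, while PGLS opens the lactone formed between them. RPIA, TKT and TALDO1 of the non-oxidative branch rearrange the resulting pentose phosphates and return carbon to glycolysis without forming NADPH. Cytosolic malic enzyme (ME1) and the NADP-dependent isocitrate dehydrogenases of the cytosol (IDH1) and of mitochondria (IDH2) form NADPH from malate and isocitrate, and MTHFD1 does so in the cytosolic folate cycle.

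The targeted gene *Tbrg4* had exon FPKM of 314.7 and 291.5 in the 2 mice. Exon FPKM of all genes summed to 852961 in replicate 1 and to 1788120 in replicate 2. The top 10 genes made up 79.5% and 90.6% of these sums. Read counts were not used here and the depth is unknown, so the precision of each value rests on the 2 mice and on rounding to 1 decimal. All 6 markers of secretory epithelium were present, but they did not move together. The casein gene *Csn2* had exon FPKM of 108555 and 481937, *Lalba* had 8453.5 and 8265.4, and the keratin genes *Krt8* (31.4 and 14.6) and *Krt18* (145 and 57.6) were more than 2-fold lower in replicate 2. All 6 adipocyte markers were present as well, and they summed to 847.5 and 616.4. *Cfd* (692 and 436.5) held most of this sum, while *Adipoq* (85.3 and 113) was higher in replicate 2 and *Plin1* (7.8 and 2.6) lower. The sums were 43.4 and 32.5 for myoepithelium, 32.1 and 30.5 for endothelium, 11.7 and 7.6 for macrophages, and 0 and 0.5 for lymphocytes. The myoepithelial marker *Acta2* was listed at 0 in both mice, and *Gapdh* (0.1 and 0.3) and *Ppia* (0.4 and 0), which every cell uses, were near 0, so a value at or near 0 in these files can be a failed estimate. Adipocytes and secretory cells can both express lipogenic enzymes, and the part of each cell type in the values below was not tested. In whole tissue, fewer cells of a type and less RNA per cell cannot be told apart. Some marker differences shrank after the GC correction described below. On log2 (exon FPKM + 1), replicate 2 minus replicate 1, *Krt8* went from -1.05 to -0.53 and *Krt18* from -1.32 to -0.84. Neither keratin gene was then more than 2-fold apart. *Cfd* went from -0.66 to -0.03 and *Plin1* from -1.29 to -0.46. *Csn2* kept 1.87 of its 2.15, and *Adipoq* kept 0.38 of its 0.40.

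Among the NADPH-forming enzymes, the gene of cytosolic malic enzyme had the highest level. *Me1* (chr9:86581363-86695914, minus strand, GRCm38) had exon FPKM of 142.0 and 196.1 in replicates 1 and 2, which average to 169 ± 38.3 (SD, n = 2). It ranked 132 among the 20515 genes with a usable symbol, which places it at the 99.4th percentile. Its paralogs for mitochondrial malic enzyme were low, with mean exon FPKM of 0.60 for *Me2* and 0.10 for *Me3*. The *Me1* exon FPKM was 237-fold and 327-fold that of *Me2* in the 2 mice. These ratios are coarse, since values as low as that of *Me2* are limited by rounding and can be failed estimates.

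The oxidative branch was led by its first enzyme. *G6pdx* (chrX:74409483-74428880, minus strand), which encodes the rate-limiting glucose-6-phosphate dehydrogenase, had 84.3 and 118.4, a mean exon FPKM of 101 ± 24.1 (SD, n = 2) and rank 206. *Pgd* (chr4:149149991-149166705, minus strand) had 56.7 and 58.4, a mean of 57.55 ± 1.20 (SD, n = 2) and rank 401. *Pgd* was the member whose exon FPKM differed least between the mice, with a coefficient of variation of 2.09%. *Pgls* (chr8:71592184-71596267, plus strand), the lactonase gene between them in the pathway, had only 6.4 and 2.5, a mean of 4.45 ± 2.76 (SD, n = 2) and rank 5772. The branch thus spanned from 4.45 to 101 in mean exon FPKM, and *Pgls* was the lowest of all 10 genes.

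The non-oxidative branch showed the same unevenness. *Taldo1* (chr7:141392160-141402976, plus strand), the transaldolase gene, had exon FPKM of 162.0 and 98.5, a mean of 130.25 ± 44.9 (SD, n = 2) and rank 159. *Tkt* (chr14:30549131-30574724, plus strand), the transketolase gene, had 183.5 and 75.1, a mean of 129 ± 76.7 (SD, n = 2) and rank 162. *Rpia* (chr6:70765720-70792175, minus strand), which encodes the ribose 5-phosphate isomerase, had 6.9 and 5.2, a mean of 6.05 ± 1.20 (SD, n = 2) and rank 4724. *Taldo1* exceeded *Rpia* 23.5-fold in replicate 1 and 18.9-fold in replicate 2, far beyond the spread between the mice. *Rpe*, the gene of the epimerase that acts beside RPIA, had 11.1 and 16.3 and was also well below *Tkt*, by 16.5-fold and 4.61-fold.

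The isocitrate dehydrogenase genes and the folate gene were lower. *Idh2* (chr7:80094846-80115350, minus strand) had exon FPKM of 24.1 and 11.9, a mean of 18.0 ± 8.63 (SD, n = 2) and rank 1699. *Idh1* (chr1:65158616-65186479, minus strand) had 11.8 and 13.8, a mean of 12.8 ± 1.41 (SD, n = 2) and rank 2420. *Mthfd1* (chr12:76255232-76319820, plus strand) had 8 and 5.5, a mean of 6.75 ± 1.77 (SD, n = 2) and rank 4318. The ratio of *Idh1* to *Idh2* was 0.490 in replicate 1 and 1.16 in replicate 2, so that the order of these 2 genes differed between the mice. The difference between the mice in the log2 of this ratio was 1.24, and 0.66 after the correction for GC content described below.

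**Figure D1:**
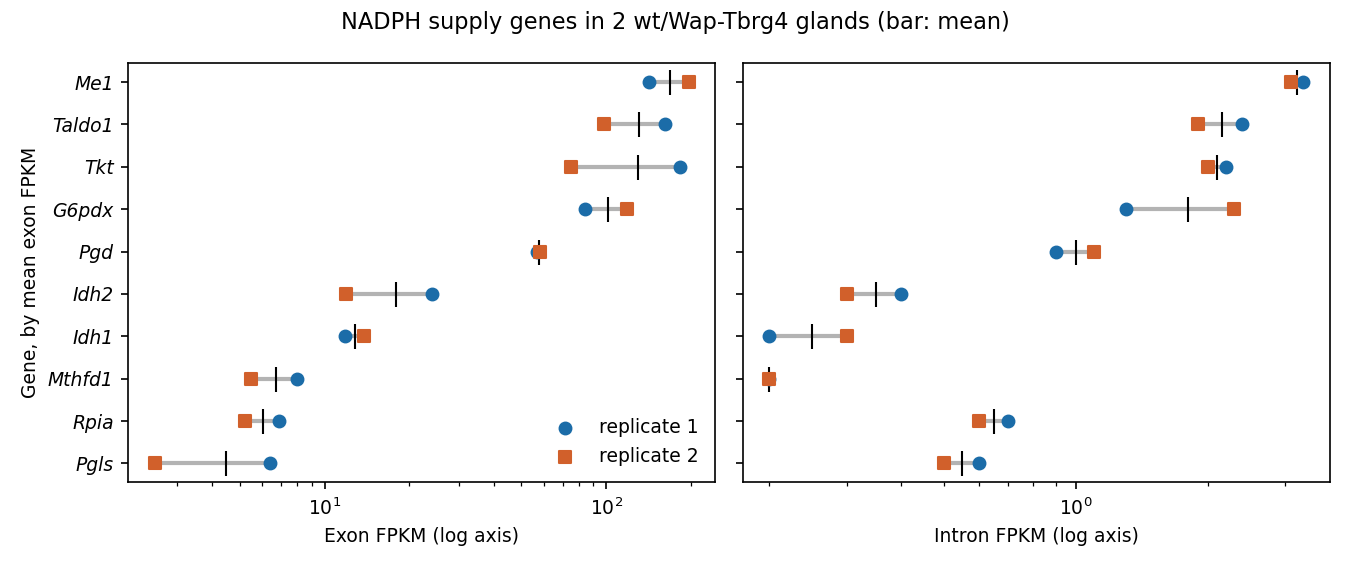
Exon FPKM (left) and intron FPKM (right), on log axes, of the 10 NADPH supply genes in both wt/Wap-Tbrg4 mice, with a bar at the mean and a line joining the mice. Genes from *Pgd* upwards lie at exon FPKM of 56.7 or more in each mouse and the other 5 at 24.1 or less.

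The 10 genes fell into an upper and a lower set in both mice. *Me1*, *Taldo1*, *Tkt*, *G6pdx* and *Pgd* all lay at 56.7 or more, and *Idh2*, *Idh1*, *Mthfd1*, *Rpia* and *Pgls* all lay at 24.1 or less. Within the upper set, *Me1*, *Taldo1*, *Tkt* and *G6pdx* overlapped from one to the next in their ranges over the 2 mice. *Me1* and *G6pdx* did not overlap, with *Me1* higher in both mice, and the other pairs among these 4 genes did. *Pgd* lay below *G6pdx* in both mice, at 0.673 and 0.493 of its level, and the ranges did not overlap. In the lower set, *Idh2* and *Idh1* overlapped, *Mthfd1* lay below *Idh1* without overlap, and *Mthfd1*, *Rpia* and *Pgls* overlapped from one to the next. The median of the 10 mean exon FPKM was 37.8, beside 5.70 over the 9845 genes whose mean reached 1, a minimum that all 10 genes passed.

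A share of the summed exon FPKM of the 6 NADPH-forming genes does not depend on how the libraries are scaled. *Me1* held 43.4% and 48.5% of this sum, a mean of 46.0% ± 3.599 (SD, n = 2). *G6pdx* held 25.8% and 29.3%, and *Pgd* held 17.3% and 14.5%. The oxidative pentose phosphate genes *G6pdx* and *Pgd* together held 43.1% and 43.8%. This was just below the share of *Me1* in replicate 1 and further below it in replicate 2. *Idh2* held 7.37% and 2.95%, *Idh1* held 3.61% and 3.42%, and *Mthfd1* held 2.45% and 1.36%. Genes of NADPH-forming enzymes outside the 10, such as *Aldh1l1* (21.4 and 10.5) and *H6pd* (3.30 and 2.40), are not in this sum. These are shares of mRNA per length and not of enzyme activity, which was not measured. The ratio of *Me1* to *G6pdx* was 1.68 in replicate 1 and 1.66 in replicate 2, although both genes were higher in replicate 2. The difference between the mice in the log2 of this ratio was -0.02, and -0.22 after the correction for GC content described below. The shares were not corrected for GC content.

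**Figure D2:**
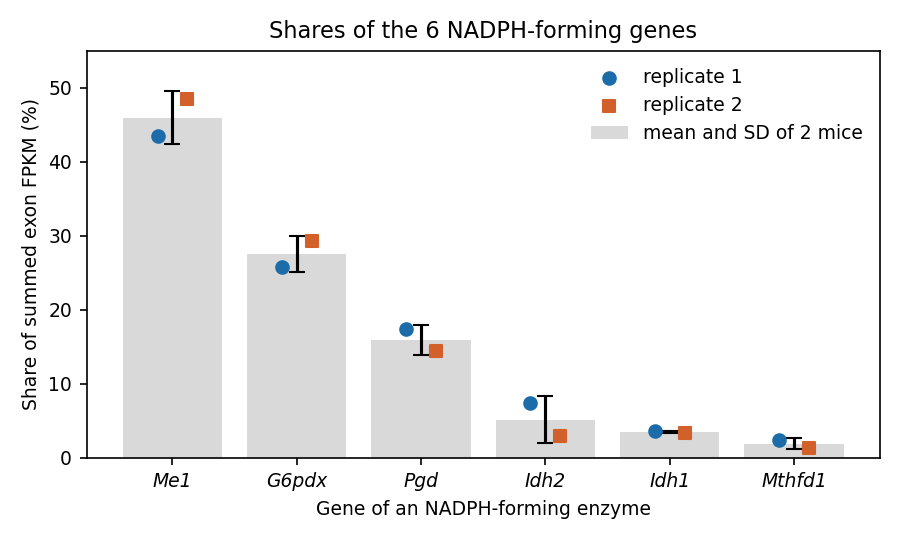
Share of each of the 6 NADPH-forming genes in their summed exon FPKM, in percent, for both mice, with bars at the mean and error bars of 1 SD. *Me1* is highest in both mice (43.4% and 48.5%), followed by *G6pdx* and *Pgd*.

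Intron reads come largely from unspliced RNA. The highest intron FPKM was that of *Me1*, with 3.3 and 3.1, a mean of 3.20 ± 0.141 (SD, n = 2) and rank 222. *Taldo1* had 2.4 and 1.9, *Tkt* had 2.2 and 2, *G6pdx* had 1.3 and 2.3, and *Pgd* had 0.9 and 1.1. The lowest were *Idh2* (0.40 and 0.30), *Idh1* (0.20 and 0.30) and *Mthfd1* (0.20 in both). *Rpia* (0.70 and 0.60) and *Pgls* (0.60 and 0.50) had more intron signal than *Idh1* and *Idh2*, while their exon FPKM was lower. RefSeq gives *Me1* 110975 bp of introns and *Pgls* 2917 bp.

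The mean exon FPKM was also divided by the mean intron FPKM. The 7 genes whose mean exon FPKM reached 10 had ratios from 51.2 for *Idh1* to 61.6 for *Tkt*, with a median of 56.3. The 3078 genes that reached this level and had intron signal showed a median ratio of 28.4, with 17.5 and 50.9 at the 25th and 75th percentiles. The low intron values make some of these ratios coarse, since rounding alone allows from 42.5 to 64.3 for *Idh1* and from 44.9 to 60.2 for *Idh2*. Within single mice the spread was wider, from 43.0 for *Me1* to 83.4 for *Tkt* in replicate 1 and from 37.55 for *Tkt* to 63.3 for *Me1* in replicate 2. The remaining 3 genes, all with a mean exon FPKM under 10, had ratios of 33.8 for *Mthfd1*, 9.31 for *Rpia* and 8.09 for *Pgls*. Over all genes with intron signal whose mean exon FPKM reached 1, the median ratio was 15.3. The median of all genes thus rose with the minimum, which is set on the numerator of the ratio. The 3078 genes were not matched to the 7 genes in exon level.

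**Figure D3:**
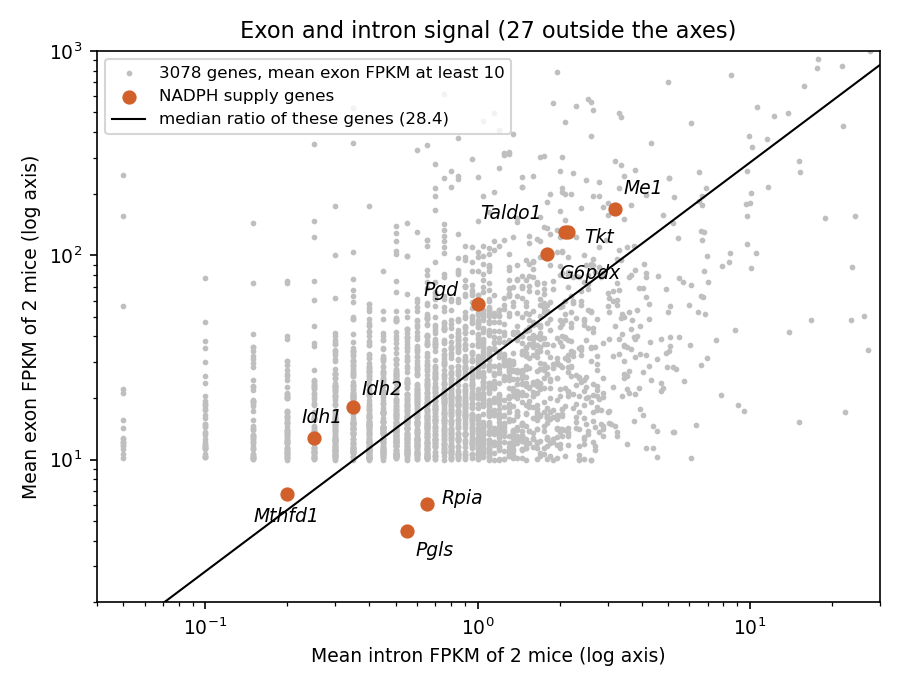
Mean exon FPKM against mean intron FPKM of the 2 mice, on log axes, for the 10 NADPH supply genes and for the 3078 genes whose mean exon FPKM reached 10, of which 27 lie outside the axes. The line marks their median ratio of 28.4. *Rpia* and *Pgls* lie below it, at a mean exon FPKM under 10. Over genes with intron signal whose mean exon FPKM reached 1, the median ratio was 15.3.

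The 2 mice share genotype and stage, so their log2 ratio measures the spread between replicates of one group. On the scale of log2 (exon FPKM + 1), replicate 2 minus replicate 1, the 10 genes ranged from -1.28 for *Tkt* to 0.49 for *G6pdx*. *Tkt* and *Pgls* (-1.08) were more than 2-fold apart, both lower in replicate 2, which is 2 of 10 genes, beside 5.9% of the 9845 genes in either direction and 4.82% in this direction. *Idh2* (-0.96, or 2.03-fold without the added 1) was just inside this limit, followed by *Taldo1* (-0.71), *Mthfd1* (-0.47) and *Rpia* (-0.35). *Me1* (0.46), *Idh1* (0.21) and *Pgd* (0.04) were higher in replicate 2, as was *G6pdx*. In all, 6 of the 10 genes were lower in replicate 2, beside 55.4% of all genes. *Rpia*, *Tkt* and *Taldo1* of the non-oxidative branch were lower, but *Rpe* of the same branch was higher (0.52), and in the oxidative branch *Pgls* was lower and *G6pdx* and *Pgd* were higher. The median over the 10 genes was -0.41, and over all 9845 genes it was -0.08. The size of the median over the 10 genes was not stable. It was -0.11 after the GC correction described next and -1.28 when each library was rescaled to the same sum. Over only the 7 genes whose mean reached 10, the median was 0.04.

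The log2 ratio went with the GC content of the exons, as it did across the whole library pair. Spearman's rho was -0.685 and Pearson's r was -0.668 across the 10 genes, and rho was -0.659 across all genes whose mean exon FPKM reached 1. These are correlations across genes of the same 2 libraries and carry no p-value. Exon GC content was lowest in *Idh1* (44.1%) and *Me1* (47.3%) and highest in *Pgls* (66.8%), with *Tkt* at 54.0%. To show this difference, a stretch of 90 coding bases is given for each of these 4 genes, taken inside one exon where the GC content is nearest to that of all exons of the gene. They are read 5′ to 3′ on the coding strand from the GRCm38 genome, and capitals mark G and C.
*Idh1*, exon 9, chr1:65161077-65161166: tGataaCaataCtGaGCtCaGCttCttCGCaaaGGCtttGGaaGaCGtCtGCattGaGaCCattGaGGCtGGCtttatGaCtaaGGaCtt
*Me1*, exon 12, chr9:86596087-86596176: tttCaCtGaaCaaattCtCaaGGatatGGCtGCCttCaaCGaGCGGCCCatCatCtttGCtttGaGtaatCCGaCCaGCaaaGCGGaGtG
*Tkt*, exon 2, chr14:30558727-30558816: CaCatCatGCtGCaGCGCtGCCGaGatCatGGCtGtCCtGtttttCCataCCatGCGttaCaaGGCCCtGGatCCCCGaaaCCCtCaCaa
*Pgls*, exon 5, chr8:71596096-71596185: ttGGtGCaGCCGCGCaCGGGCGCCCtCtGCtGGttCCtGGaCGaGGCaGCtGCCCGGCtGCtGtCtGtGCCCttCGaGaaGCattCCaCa

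A lowess curve of the log2 ratio on exon GC content was fitted over the expressed genes and subtracted. For *Pgls*, the curve lay at -1.14 and the remainder was 0.059, but only 12 of the 9839 genes had an exon GC content of at least 65%, so the curve is thinly supported there. For *Idh1*, the remainder was 0.0016. *Tkt* kept -0.97 of its -1.28, and *Idh2* kept -0.59 of its -0.96. After this correction, none of the 10 genes was more than 2-fold apart, beside 1.91% of the 9839 genes with a GC value. *G6pdx* (0.63), *Me1* (0.41) and *Pgd* (0.37) lay above the curve, and *Tkt*, *Idh2*, *Taldo1* (-0.40), *Mthfd1* (-0.25) and *Rpia* (-0.23) lay below it. The SD of the log2 ratio over the 10 genes fell from 0.64 to 0.49 and that over all genes from 0.51 to 0.39. What else differed between the 2 libraries was not tested.

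**Figure D4:**
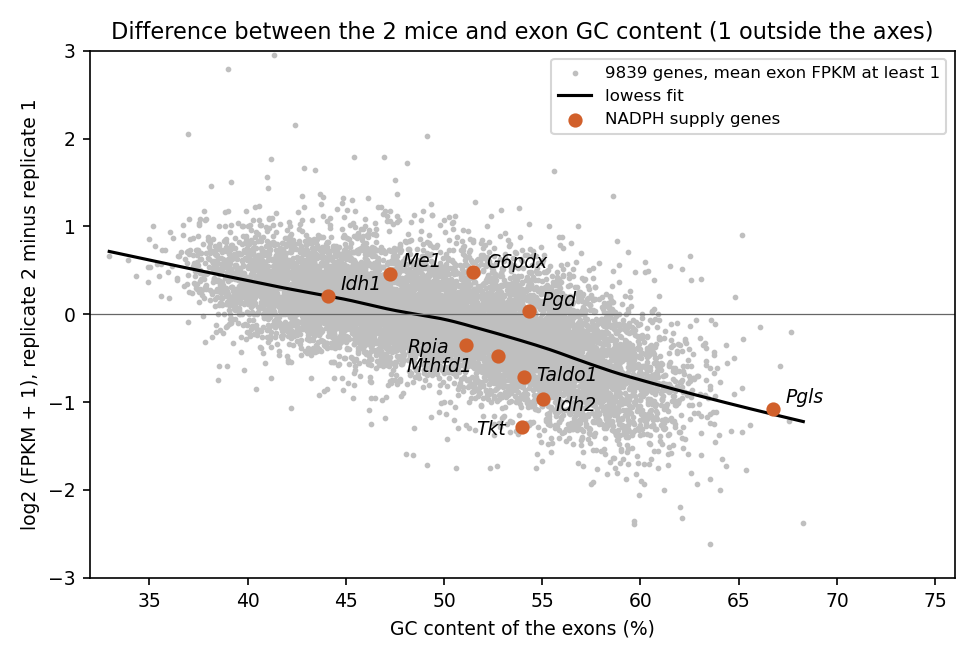
Difference between the mice, as log2 (exon FPKM + 1) of replicate 2 minus replicate 1, against exon GC content in percent, for 9839 genes, of which 1 lies outside the axes, with a lowess fit. *Pgls* and *Idh1* lie on the curve, *G6pdx*, *Pgd* and *Me1* above it, and *Tkt* farthest below.

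Among the genes whose mean intron FPKM reached 0.5, *Tkt*, *Pgls*, *Taldo1*, *Me1* and *Rpia* differed less between the mice in introns than in exons. *G6pdx* and *Pgd* differed more in introns. The intron FPKM of *Pgls* and *Rpia* differed by only the rounding step. The added constants differ between exons and introns, and how often all genes show either order was not counted. On log2 (intron FPKM + 0.1), *Tkt* differed by -0.13, *Pgls* by -0.22, *Taldo1* by -0.32 and *Me1* by -0.09, while *G6pdx* differed by 0.78. Of the 7 genes whose mean intron FPKM reached 0.5, none was more than 2-fold apart, beside 5.9% of 4220 genes. *G6pdx* was thus higher in replicate 2 in exons and in introns, whereas *Tkt*, with the largest exon difference, had nearly equal intron FPKM. Intron values of *Idh1*, *Idh2* and *Mthfd1* (0.20 to 0.40) are too close to the rounding step for a comparison.

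Genes that provide the substrates and cofactor or use the NADPH were compared through lists of 37 genes, of which 36 were found and 16 reached a mean exon FPKM of 10. *Fasn*, which encodes the fatty acid synthase that spends NADPH, had exon FPKM of 718.9 and 616.3, which was 5.06-fold and 3.14-fold the level of *Me1*. *Acly* (488.5 and 466.8) makes cytosolic acetyl-CoA from citrate, and *Slc25a1* (247.7 and 269.0) exports that citrate from mitochondria. *Mdh1* (227.6 and 172.0), whose enzyme makes the malate that ME1 oxidizes, was at 1.60-fold and 0.877-fold of *Me1*. All 6 genes of the citrate and malate cycle had a mean exon FPKM of at least 28.7, with a median of 229.

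Paralogs and related enzymes were measured as well, including some that do not form NADPH. The NAD-dependent mitochondrial isocitrate dehydrogenase genes *Idh3b* (35.9 and 43.5) and *Idh3g* (29.1 and 41.4) were above both *Idh1* and *Idh2* in each mouse, and *Idh3b* was 3.04-fold and 3.15-fold the level of *Idh1*. *Idh3a* (7.1 and 12.4), which encodes another subunit of this enzyme, lay below *Idh1* in both mice. *H6pd*, the hexose-6-phosphate dehydrogenase of the endoplasmic reticulum, had 3.30 and 2.40, compared with 84.3 and 118.4 for *G6pdx*. The transketolase-like genes *Tktl1* and *Tktl2* were listed at 0 in both mice. Of the 7 other folate genes, *Aldh1l1* (21.4 and 10.5), which forms cytosolic NADPH from formyl folate, was the only one with a mean of at least 10, and mitochondrial *Mthfd2* (0.50 and 0.30) and *Mthfd1l* (0.10 in both) were near 0. *Nadk* (49.7 and 46.9) encodes the cytosolic kinase that makes NADP+. With 1 added to each FPKM, none of the 30 genes of these lists that reached a mean exon FPKM of 1 was more than 2-fold apart. This stands beside 5.9% of the 9845 genes, and *Aldh1l1* and *Por* (24.0 and 11.5) were more than 2-fold apart without the added 1. Of the 30 genes, 20 were lower in replicate 2, beside the 55.4% of all genes, with a median log2 ratio of -0.08. After the GC correction this median was 0.15. Spearman's rho of the uncorrected log2 ratio with exon GC content was -0.39 across the 30 genes.

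**Figure D5:**
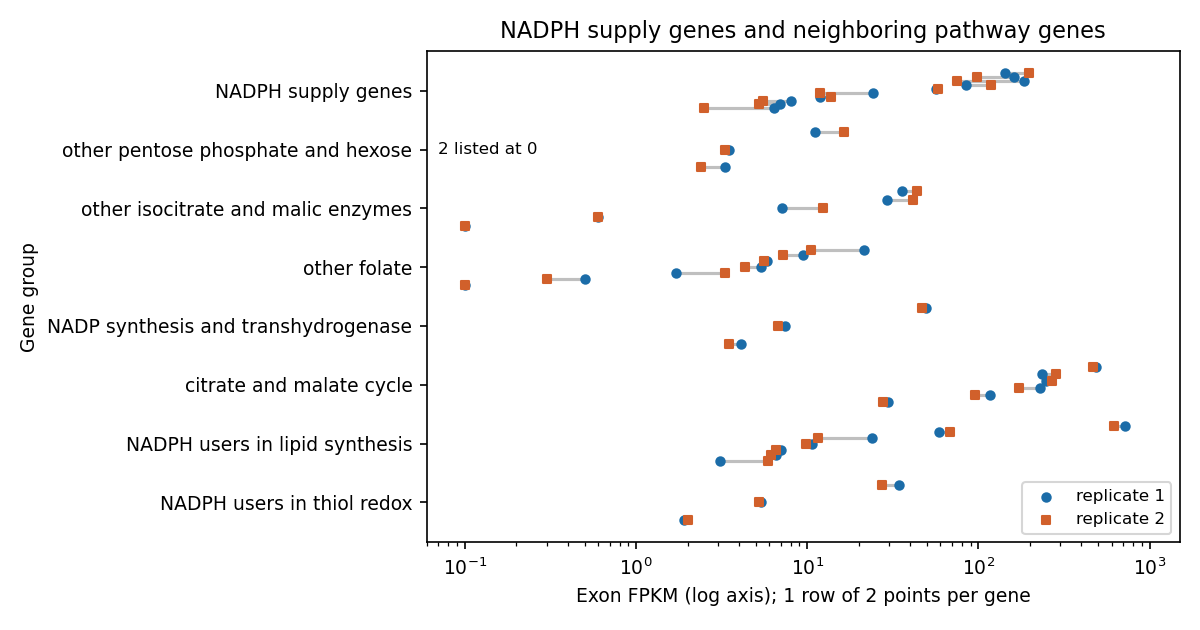
Exon FPKM, on a log axis, of the 10 NADPH supply genes and 36 neighboring pathway genes in both mice, each gene as a pair of points joined by a line. The citrate and malate genes lie at 27.6 or above, and *Tktl1* and *Tktl2* are listed at 0.

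Promoter windows from RefSeq on GRCm38, reaching from 250 bases before to 50 bases after each annotated start, were found for all 10 genes (13 windows) and searched on both strands for short motifs. The letters TGACNNNGC, the core of the antioxidant response element bound by NRF2, occurred in windows of *G6pdx*, *Me1* and *Pgd*, 3 of 13, beside 12.4% of 32851 windows of all genes. In the *Me1* window the match starts 6 bases before the start of transcription. In the *G6pdx* window it starts 57 bases before. The letters TCACNCCA, a core of the sterol regulatory element, occurred in windows of *Tkt*, 42 bases before the start, and of *Pgd*, 2 of 13 beside 4.36% of all windows. The STAT5 recognition sequence TTCNNNGAA was in none of the 13 windows and in 8.3% of all. The 3 matches in genes of the upper set, apart from *Pgd*, are shown 5′ to 3′ in the direction of the gene with the match in capitals. *G6pdx* and *Tkt* hold it on the opposite strand. These are matches of letters only, and binding of a factor at them was not analysed here.
*Me1*, chr9:86695902-86695930: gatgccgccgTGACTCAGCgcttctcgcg
*G6pdx*, chrX:74428919-74428947: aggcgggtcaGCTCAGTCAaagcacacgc
*Tkt*, chr14:30549079-30549106: ctcgtcggccTGGGGTGAttcggcgccc

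Reads can be shared between near-identical sequences or overlapping genes. Coding sequences were aligned to the genome, and a second place was counted when it covered 50% or more of the sequence with 95% or more of the bases identical. *Me1* had 1 such copy, at 98.4%, and the other 9 genes had none. How reads that fit several places were treated is not given in the sources used here. Exons of *Mthfd1* share 8.48% of their bases with exons of genes on the opposite strand and those of *Me1* 0.839%. The library kit marks strand, but whether counting used it is not given.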

How the data were processed

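Total RNA from L10 mammary glands of 2 wt/Wap-Tbrg4 mice had been sequenced after stranded library preparation. The authors mapped reads to mm10 with STAR, counted them with HTSeq on merged UCSC exons and on introns, and deposited FPKM made with DESeq2, with 1 decimal and without scaling to a common sum. Versions and the handling of multi-mapping reads are not given in the sources used here. The 12 ChIP-seq samples were not analysed here.

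From the deposited FPKM, 35 of 20550 rows without a usable symbol were left out. Gene structure and GC content came from curated RefSeq transcripts on GRCm38.p6, the assembly of mm10, matched by symbol or synonym for 99.7% of genes. Levels are means ± SD over 2 mice. Log2 ratios used a pseudocount of 1 for exons and 0.1 for introns over genes with a mean of at least 1 and 0.5. The lowess fit used 30% of genes and was tested on simulated data. Copies were sought with minimap2 2.31. All 10 genes are named, other listed genes where their mean exon FPKM is at least 10 or they are paralogs of a member. The members and lists were chosen with earlier results of these data known. Other scalings, pseudocounts, filters, means and leaving out each mouse were tried. Python 3.11.15, numpy 2.4.6, pandas 2.3.3, statsmodels 0.14.6 and matplotlib 3.10.9 were used.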

Additional observations from a re-analysis of the deposited data

How the results depend on the processing

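Of 60 alternatives for the summary values, 49 stayed within 1 SD of the mice for levels, 0.1 for log2 values or 1.5-fold for counts. Most of the 49 are settings that leave out 1 mouse, and every such setting is among them. With 2 mice, leaving 1 out stays within 1 SD of the mean by construction and shows no stability, and it leaves no log2 ratio between mice to calculate. The geometric mean of a level is bound in the same way. Dropping the exon minimum changes nothing, since all 10 genes pass it. The median log2 ratio of exons between the mice, -0.41, became 0.042 over the 7 genes whose mean exon FPKM reached 10, -1.28 when each mouse was rescaled to a sum of 1000000, and -0.11 after the GC correction. The count of genes more than 2-fold apart, 2, became 1, 7 and 0 under the same settings. The rescaling divides replicate 2 by the larger sum, of which its 10 highest genes held 90.6%, and it turned the sign of 4 single genes. The median intron log2 ratio became 0.027 after the correction for intron GC content. The difference between the mice in the log2 ratio of *Idh1* to *Idh2* became 0.66, of *Pgd* to *G6pdx* -0.26, of *Idh1* to *G6pdx* -0.62 and of *Me1* to *G6pdx* -0.22 after the GC correction, the last from -0.02. The log2 ratio of *Pgls* turned from -1.08 to 0.059. The cause of these changes was not tested beyond what each setting removes. No paired analysis was possible because there is one group. Depth is unknown, so low intron values are limited by rounding.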

Other observations

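Some neighboring genes differed between exons and introns in ways that the exon values alone do not show. *Fasn* had exon FPKM of 718.9 and 616.3 but intron FPKM of 48.4 in replicate 1 and 22.7 in replicate 2. *Slc25a1*, the citrate carrier gene, had exon FPKM of 247.7 and 269.0 and intron FPKM of 2.70 and 1.30. *Acly* had nearly equal intron FPKM in both mice (12.3 and 12.2). After the GC correction, the log2 ratio of exons between the mice was 0.81 for *Slc25a1*, 0.67 for *Idh3g* and -0.65 for *Mdh1*, compared with 0.12, 0.49 and -0.40 before it.

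Among the NADPH users, *Por*, the reductase gene that passes electrons from NADPH to cytochromes P450 and squalene monooxygenase, had exon FPKM of 24.0 and 11.5. *Sqle*, the squalene monooxygenase gene, had 58.9 and 68.6, and *Txnrd1*, the cytosolic thioredoxin reductase gene, had 34.5 and 27.5. *Gapdh*, named here after its values were seen, had exon FPKM of 0.1 and 0.3 and intron FPKM of 0.7 and 0.9, so that its exon signal was below its intron signal in these files. The 10 NADPH supply genes had exon FPKM above intron FPKM, as most genes did. Among genes with intron signal whose mean exon FPKM reached 10, the ratio was 10.4 at the 10th percentile.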
